A study of Bos taurus with 20 samples.

Results

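The 10 genes described here code for ESCRT proteins and their partners, and their mRNA was measured in the cells of the bovine ovarian follicle. They were chosen by name: every non-control probe of the array whose gene name, without its transcript number, was TSG101, PDCD6IP, HGS, STAM, VPS4A, VPS4B, CHMP4B, CHMP2A, VPS25, or SDCBP was taken. All 10 were found, on 24 spots that carried 21 different sequences, among 61325 probes for 22550 genes or transcripts. The rule itself uses no measured value, but the members were chosen with earlier results of these data known. The study asked which follicular cells express the genes of proteins carried by extracellular vesicles of follicular fluid. It retrieved values obtained earlier on a customized 1-color Agilent array, for which 200 ng of total RNA per sample was labeled with Cy3. It also identified proteins of the vesicles and of GC, with the product of SDCBP listed under the vesicles. There were 4 arrays each of theca (TH), granulosa (GC), and cumulus cells (CC), of immature oocytes (OO), and of CC taken after in vitro maturation (IVM) for 4 h.

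All 5 groups came from cattle follicles of 3 to 6 mm collected at slaughter, and the age and breed of the animals were not given. TH were scraped from the follicle wall, whereas GC and cumulus–oocyte complexes were aspirated. For the IVM group, the complexes were cultured for 4 h before CC were detached from them. The 4 samples of a group are called biological replicates in the methods, and nothing else says that they came from separate animals, so a p-value here measures the spread between these samples. In whole tissue or pooled cells, fewer cells of a type and less RNA per cell cannot be told apart.

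ESCRT stands for endosomal sorting complex required for transport. These complexes act in turn on the endosome membrane: ESCRT-0 gathers ubiquitinated cargo, ESCRT-I and ESCRT-II deform the membrane, ESCRT-III filaments cut the neck of the inward bud, and the VPS4 ATPases take the filaments apart. The buds become the intraluminal vesicles of multivesicular bodies, which are released as exosomes when such a body fuses with the plasma membrane. Syntenin, coded by SDCBP, links syndecans at the cell surface to ALIX, coded by PDCD6IP, and through it to ESCRT-III. The same machinery also acts in the last step of cell division and in the repair of membranes.

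The 60-base probes decide what was measured, and those of 4 genes are shown as their last 30 bases because the results turn on how far the probes of 1 gene differ. Places are those of the transcripts on UMD 3.1 as the files give them, without a strand, and whether a probe lies in coding or untranslated sequence was not determined here. Capitals mark bases shared with the other probe of VPS4B and a polyadenylation hexamer, AATAAA or ATTAAA, in the other genes. The VPS4A sequence on 2 spots is listed once for each of its 2 transcripts, and the last sequence for the second transcript only.
VPS4B, first probe, chr24:62175123-62204856: AGTAAATTGACATAACCTACTGTTGGCTGt
VPS4B, second probe: AAGTAAATTGACATAACCTACTGTTGGCTG
HGS, first probe, chr19:51733073-51746201: cagcgatAATAAAaatgtctttcaacaagt
HGS, second probe: gagtagatggaatggaacagcgatAATAAA
VPS25, dim probe, chr19:43446967-43451724: aagaacaagtctagcttcctgatcatgtgg
VPS25, bright probe: ccagcactgatttatgattATTAAAaagct
VPS4A, on 2 spots, chr18:36584633-36595360: agcccagccactgccccgggtccctgtcct
VPS4A, dim probe: tgaaaagcgaatttatatcccattgccgga
VPS4A, second transcript: agggaacgcagtcaggcaggtgtcactgct

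The 2 VPS4B probes share a run of 59 bases and were in effect 1 measurement. The HGS and TSG101 probes share runs of 43 bases and the CHMP4B probes 42, whereas the probes of CHMP2A, VPS25, STAM, PDCD6IP, SDCBP, and VPS4A share no run longer than 6 bases. One of the 2 hexamers, read on the strand of the probe, was found in 5 of the 21 sequences, against 10.9% of all 50909 distinct probe sequences on the array and 5.18% for the reverse complement. TSG101 (chr29:26450457-26492046) was on 4 spots of 2 sequences, and spots of the same sequence differed on an array by a median of 0.14 or 0.05 on the log2 scale and by at most 0.23.

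Values are log2 of the background-subtracted signal minus the 75th percentile of the array, so that 0 is that percentile, and a gene has the median over its spots. A value places a gene among the probes of its array, and levels of different genes are not compared because their probes differ. On an array, 49.3 to 68.8% of the probes gave a signal well above background, fewest on OO replicate 2. The share was 58.9 to 62.8% in CC and 54.2 to 58.3% in CC after IVM. Every member was well above background on all 20 arrays. The 75th percentile of signal was 1521.1 to 2890.7 in OO, 424.1 to 1100.7 in TH, and 368.1 to 576.3 in GC. In CC it was 536.3 to 657.3, and in CC after IVM 284.5 to 395.9. Replicates 1 and 2 of each cell type were on slide 1, replicates 3 and 4 on slide 2, and all 4 arrays of CC after IVM on slide 3.

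The labels were checked with marker genes, given as the sum of their signals relative to the 75th percentile. The theca markers, ACTA2, COL1A1, COL1A2, CYP17A1, and INSL3, summed to 575 to 830 in TH, 29.8 to 115 in GC, 25.2 to 32.6 in CC, and 1.16 to 1.7 in OO. The granulosa and cumulus markers FSHR, CYP19A1, AMH, and INHBA summed to 110 to 450 in GC, 381 to 393 in CC, 18.1 to 33.4 in TH, and 2.2 to 3.02 in OO. The 6 oocyte markers GDF9, BMP15, ZP2, ZP3, ZP4, and NLRP5 summed to 248 to 330 in OO and to at most 3.01 in CC and 0.668 in TH and GC. The blood and endothelial markers PTPRC, HBB, PECAM1, and VWF summed to 1.39 to 4.48 in TH, 0.441 to 2.02 in OO, and at most 0.183 in GC and CC. Of these 4, only VWF was higher in OO than in the somatic mean (3.30), and it carried the OO sum, while PTPRC, HBB, and PECAM1 were lower and well above background on 0, 1, and 1 of the 4 OO arrays. CYP17A1 was not well above background on any CC or OO array, CYP19A1 on any OO array, GDF9 on any TH array, and PTPRC on any GC, CC, or OO array. The part of other cell types in the differences described next was not tested.

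**Figure D1:**
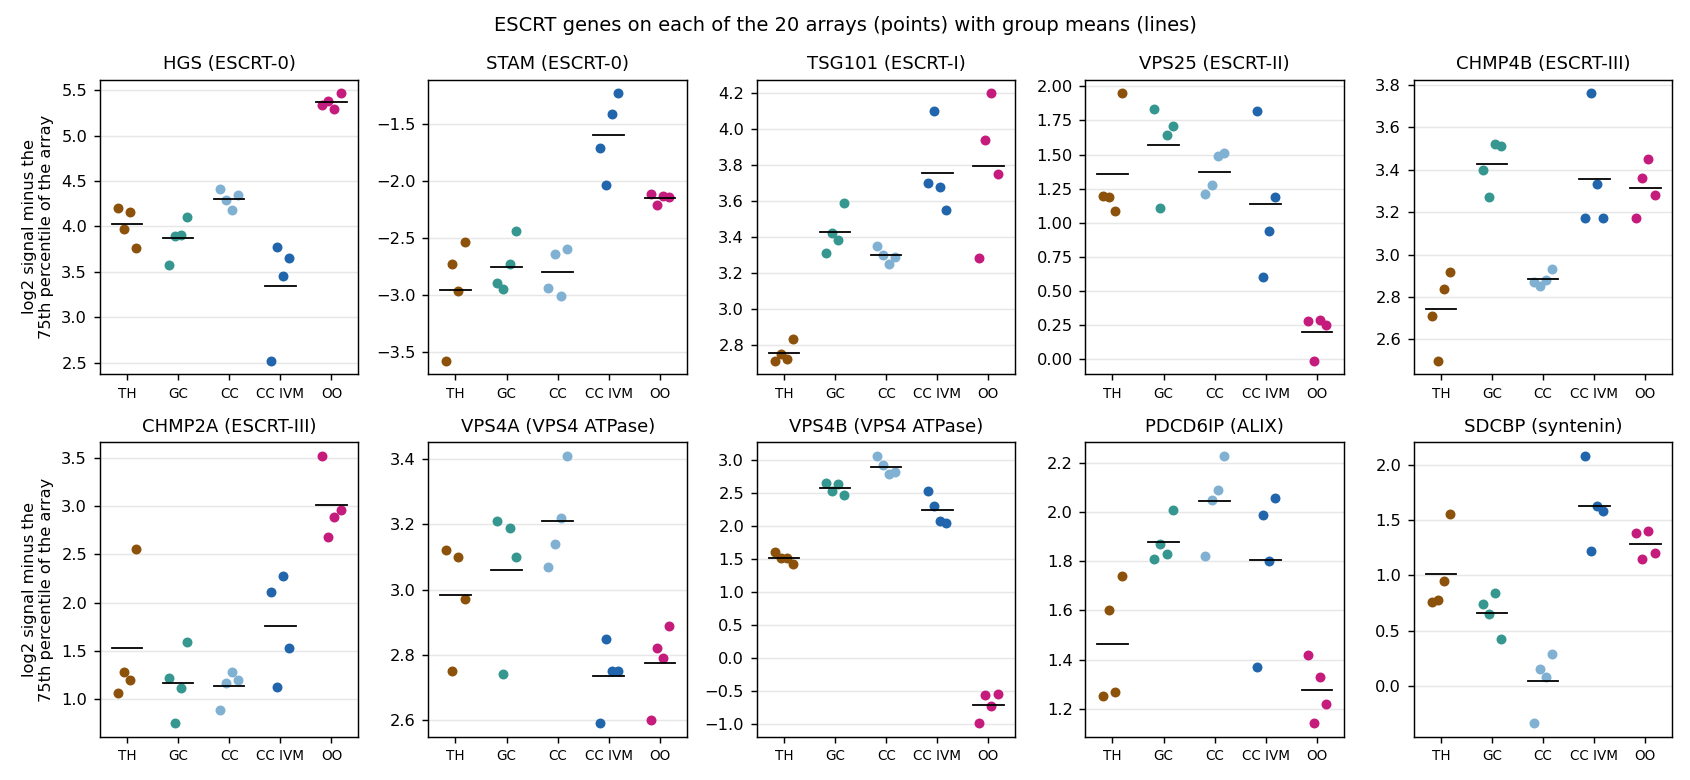
Log2 signal of the 10 genes minus the 75th percentile of the array (vertical axes, each with its own range) on the 4 arrays of TH, GC, CC, CC after IVM, and OO, with points for arrays and lines for group means. The OO arrays lay above the 12 somatic arrays for HGS, STAM, and CHMP2A and below them for VPS25 and VPS4B.

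The 10 genes were measured above background in every cell type of the follicle, and the oocyte differed from the somatic cells in both directions. In OO, HGS, STAM, TSG101, CHMP4B, CHMP2A, and SDCBP were higher than in the somatic mean (TH, GC, and CC weighted equally), and VPS25, VPS4A, VPS4B, and PDCD6IP were lower. The largest differences were a 3.32-fold higher CHMP2A and an 8.17-fold lower VPS4B, but with the brightest probe of each gene alone the log2 difference of CHMP2A (1.07) was below that of HGS (1.222). With limma and Benjamini–Hochberg adjustment over all genes, 6 of 10 members were higher, where 32.9% of all 22550 genes were, and 4 of 10 were lower, where 38.3% were. Of the 10008 genes well above background on all 16 arrays, to which the 10 belong, 45.1% were higher and 38.3% lower. The median difference was 0.47 over the members, −0.52 over all genes, and 0.19 over those 10008. The OO arrays lay above all 12 somatic arrays for 3 members, as for 25.3% of all genes, and below them for 2, as for 20.6%. The F-test over the 4 cell types called 9 of 10 members, VPS4A apart (adjusted p = 0.1), where it called 71.3% of all genes and 87.9% of the 10008. Against single cell types, OO was higher than TH for 5 members (32.5% of all genes), than GC for 4 (30.7%), and than CC for 6 (31.8%), and was lower than TH for 2 (32.1%), than GC for 3 (37.9%), and than CC for 4 (32%).

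HGS and STAM form ESCRT-0, the complex that binds ubiquitinated cargo first, with HGS also holding it to the endosome lipid. HGS read 4.20, 3.97, 4.16, and 3.76 in TH, 3.58, 3.89, 3.91, and 4.10 in GC, and 4.41, 4.29, 4.18, and 4.35 in CC. In OO it read 5.34, 5.38, 5.29, and 5.47, above every somatic array by more than the width of the OO range. The difference from the somatic mean was 1.30 ± 0.12 (SE, 2.46-fold, adjusted p = 8.3e-08), and it was 1.30 within slide 1 and 1.30 within slide 2. CC came next in the order, and CC against TH (adjusted p = 0.18) and TH against GC (adjusted p = 0.53) did not pass the threshold. The 2 probes gave 1.38 and 1.22.

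STAM, the ESCRT-0 subunit that also recruits deubiquitinases, read −3.58, −2.73, −2.97, and −2.54 in TH, −2.90, −2.95, −2.73, and −2.44 in GC, and −2.94, −2.64, −3.01, and −2.60 in CC. On the OO arrays it read −2.12, −2.21, −2.13, and −2.14. The OO values lay within 0.09 of each other and just above the highest somatic array, GC replicate 4. The difference was 0.68 ± 0.17 (1.61-fold, adjusted p = 0.0018), with 0.80 and 0.57 from the 2 probes. It fell to 0.165 (adjusted p = 0.12) with normexp background correction, and no pair of somatic cell types differed past the threshold.

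TSG101 is the ESCRT-I subunit that binds ubiquitin and short motifs in cargo and viral proteins. It read 2.71, 2.75, 2.72, and 2.83 in TH, 3.31, 3.42, 3.38, and 3.59 in GC, and 3.35, 3.30, 3.25, and 3.29 in CC. In OO it spread over 3.28, 3.94, 4.20, and 3.75, the lowest of which, replicate 1, lay within the CC range. OO was higher than the somatic mean by 0.63 ± 0.14 (1.55-fold, adjusted p = 0.00074), by 0.47 within slide 1 (adjusted p = 0.14), and by 0.80 within slide 2 (adjusted p = 0.008). The order was OO, GC, CC, TH, in which OO and GC (adjusted p = 0.067) and GC and CC (adjusted p = 0.69) did not differ past the threshold, while CC and TH did (0.54, adjusted p = 0.024).

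VPS25 belongs to ESCRT-II, which bridges ESCRT-I to ESCRT-III. In TH it read 1.20, 1.19, 1.09, and 1.95, in GC 1.83, 1.11, 1.64, and 1.71, and in CC 1.21, 1.28, 1.49, and 1.51. The OO arrays read 0.28, −0.01, 0.29, and 0.25, all below the somatic range. The fall was −1.23 ± 0.17 (2.35-fold lower, adjusted p = 7.0e-06), with −1.30 from the dim probe and −1.16 from the bright one, and −1.17 and −1.30 within slides 1 and 2. TH, GC, and CC did not differ past the threshold. The high value of TH replicate 4 came from the dim probe, which read 0.53 there and −1.31 to −1.12 on the other TH arrays, while the bright probe read 3.38 there and 3.49 to 3.53 on the others.

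CHMP4B and CHMP2A are ESCRT-III subunits, CHMP4B the main part of the filament and CHMP2A a later subunit that helps to bring in VPS4. CHMP2A read 1.07, 1.28, 1.20, and 2.56 in TH, 1.22, 0.75, 1.12, and 1.59 in GC, and 0.89, 1.17, 1.28, and 1.20 in CC. The OO arrays read 3.52, 2.68, 2.89, and 2.96, and only TH replicate 4 came near them. OO was higher by 1.73 ± 0.24 (3.32-fold, adjusted p = 9.7e-06), by 2.03 within slide 1 and by 1.43 within slide 2. The size depended on the probe: the dim one gave 2.39 ± 0.44 and the bright one 1.07 ± 0.13, both past the threshold. As for VPS25, TH replicate 4 stood apart on the dim probe (0.1, against −2.84 to −2.48 on the other TH arrays) and not on the bright one (5.03, against 4.89 to 5.06).

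CHMP4B read 2.71, 2.50, 2.84, and 2.92 in TH, 3.40, 3.27, 3.52, and 3.51 in GC, and 2.87, 2.85, 2.88, and 2.93 in CC. It read 3.17, 3.36, 3.45, and 3.28 in OO, overlapping GC and above all arrays of TH and CC. The difference from the somatic mean, 0.30 ± 0.11 (1.23-fold, adjusted p = 0.023), was 0.331 within slide 1 and 0.267 within slide 2, where it did not pass the threshold (adjusted p = 0.2 and 0.17), nor did it with quantile scaling (0.112, adjusted p = 0.27). GC was first in the order, OO second at a distance of 0.11 (adjusted p = 0.45), and OO was above CC by 0.43 (adjusted p = 0.0097).

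VPS4A and VPS4B are the paired ATPases that take ESCRT-III filaments apart. VPS4B read 1.60, 1.51, 1.51, and 1.43 in TH, 2.65, 2.53, 2.63, and 2.46 in GC, and 3.06, 2.92, 2.79, and 2.82 in CC. In OO it read −0.99, −0.56, −0.73, and −0.55, and the highest OO array lay far below the lowest somatic one. The difference was −3.03 ± 0.11 (8.17-fold lower, adjusted p = 1.1e-12), −3.15 within slide 1 and −2.91 within slide 2, and −2.35 or further from 0 under each of the 31 alternatives. The order of all 4 cell types was CC, GC, TH, OO, with GC above TH by 1.05 and TH above OO by 2.22, both past the threshold, and CC above GC by 0.34 (adjusted p = 0.16).

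VPS4A did not follow VPS4B. It read 3.12, 2.75, 3.1, and 2.97 in TH, 3.21, 2.74, 3.19, and 3.1 in GC, 3.07, 3.14, 3.22, and 3.41 in CC, and 2.60, 2.82, 2.79, and 2.89 in OO, and the OO arrays overlapped those of TH and GC. The difference of −0.31 ± 0.12 (adjusted p = 0.037) was above the threshold in 13 of 31 alternatives, including both slides taken alone, and turned to 0.326 (adjusted p = 0.022) in the deposited table. Its probes disagreed. The sequence on 2 spots, listed once for each of its 2 transcripts, gave −0.47 and −0.49. The sequence listed for the second transcript only gave −0.14. The dim probe, well above background on 3 of 4 GC and CC arrays, gave 1.09. On the same array, VPS4B minus VPS4A lay between −3.58 and −3.38 in OO and between −1.58 and −0.01 in the 12 somatic arrays, with means of −1.47 in TH, −0.50 in GC, and −0.31 in CC.

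ALIX, coded by PDCD6IP, recruits ESCRT-III without ESCRT-II. PDCD6IP read 1.25, 1.60, 1.27, and 1.74 in TH, 1.81, 1.87, 1.83, and 2.01 in GC, 1.82, 2.05, 2.09, and 2.23 in CC, and 1.42, 1.14, 1.33, and 1.22 in OO. The OO range overlapped that of TH and lay below those of GC and CC. OO was 1.43-fold lower than the somatic mean (−0.52 ± 0.12, adjusted p = 0.0014), with −0.453 within slide 1 (adjusted p = 0.12) and −0.587 within slide 2 (adjusted p = 0.029), but the sign turned to 0.113 in the deposited table (adjusted p = 0.49). In the order CC, GC, TH, OO no pair of neighbors passed the threshold, and TH and OO differed by 0.19 (adjusted p = 0.27).

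Syntenin is the adaptor between syndecans and ALIX. SDCBP read 0.76, 0.78, 0.95, and 1.55 in TH, 0.74, 0.65, 0.84, and 0.42 in GC, −0.34, 0.15, 0.08, and 0.29 in CC, and 1.38, 1.15, 1.40, and 1.20 in OO. The OO arrays lay above those of GC and CC, and TH replicate 4 lay above all of them. OO was higher than the somatic mean by 0.71 ± 0.16 (1.63-fold, adjusted p = 0.00086), by 0.805 within slide 1 and 0.612 within slide 2. The 2 probes gave 1.01 and 0.40. From OO through TH and GC to CC, no pair of neighbors passed the threshold.

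**Figure D2:**
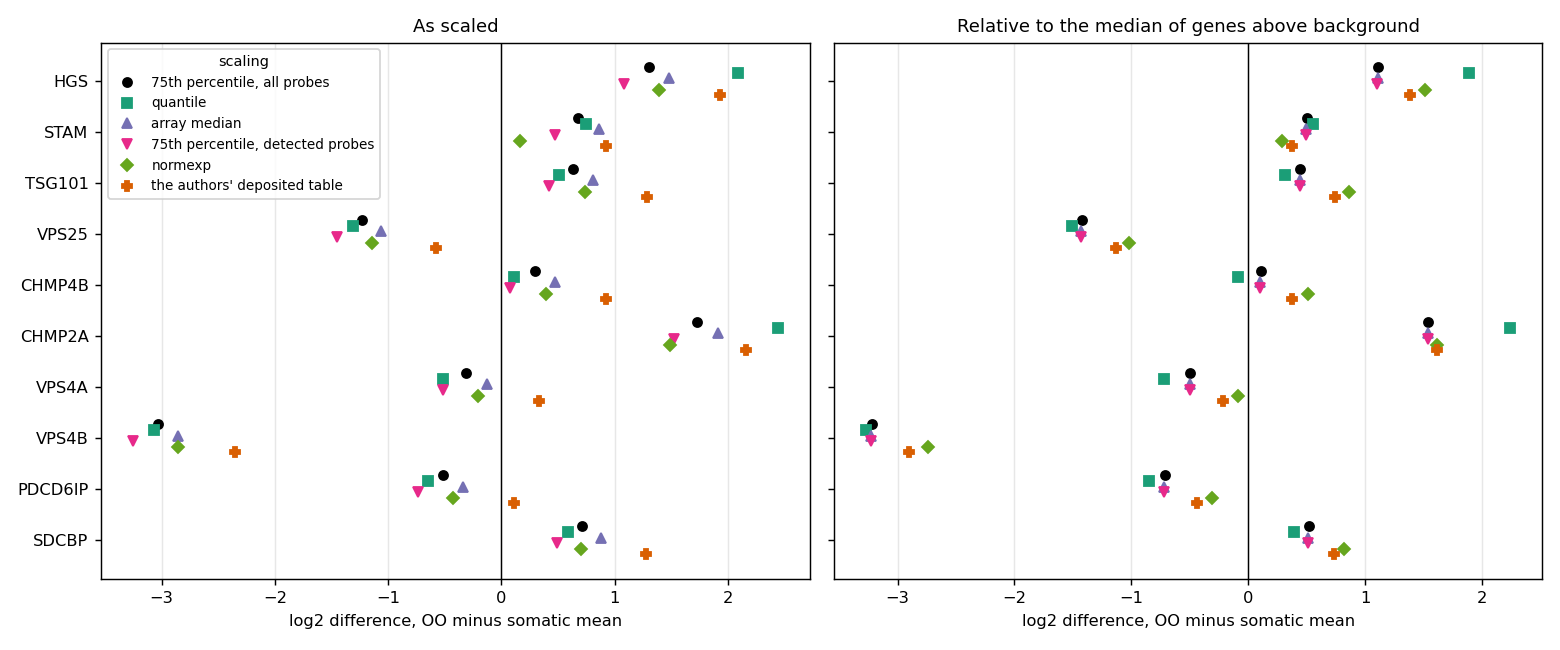
Log2 difference between OO and the somatic mean (horizontal axis) for the 10 genes under 6 scalings (symbols), as scaled on the left and minus the median difference of the 10008 genes above background on the right. VPS4A and PDCD6IP are below 0 on the left under all but the deposited table, and below 0 on the right under all 6.

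The zero of these differences depended on the scaling. The median difference between OO and the somatic mean over all genes was −0.52 with the 75th percentile, −0.01 with quantile scaling, −1.30 with normexp, and −0.63 in the deposited table. Over the genes above background it was 0.19, 0.20, −0.12, and 0.55. Relative to the latter median, VPS4B ranged over 6 scalings from −3.27 to −2.74, VPS25 from −1.51 to −1.02, PDCD6IP from −0.85 to −0.31, and VPS4A from −0.72 to −0.09. CHMP2A ranged from 1.54 to 2.24, HGS from 1.10 to 1.89, SDCBP from 0.39 to 0.82, TSG101 from 0.31 to 0.86, and STAM from 0.29 to 0.55. CHMP4B ranged from −0.09 to 0.51 and was the only member whose direction relative to that median turned.

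Among the somatic cells, VPS4B and TSG101 were lower in TH than in both GC and CC, CHMP4B was higher in GC than in both TH and CC, PDCD6IP was lower in TH than in CC, and SDCBP was higher in TH than in CC. The F-test over TH, GC, and CC called 5 of 10 members (TSG101, PDCD6IP, VPS4B, CHMP4B, and SDCBP), where it called 34.1% of all genes and 43.9% of the 10008 above background. TH was lower than GC for 3 members, against 14.5% of all genes: VPS4B (−1.05 ± 0.14, adjusted p = 3e-05), TSG101 (−0.67 ± 0.17, adjusted p = 0.008), and CHMP4B (−0.68 ± 0.13, adjusted p = 0.0012). TH was lower than CC for 3 members, against 17.4% of all genes, and higher for 1, against 14.4%. The lower ones were VPS4B (−1.39 ± 0.14), PDCD6IP (−0.58 ± 0.15, adjusted p = 0.0073), and TSG101 (−0.54 ± 0.17, adjusted p = 0.024). SDCBP was 0.97 ± 0.19 higher in TH than in CC (adjusted p = 0.0011). CHMP4B was 0.55 ± 0.13 higher in GC than in CC (adjusted p = 0.017), 1 of 10 members against 4.61% of all genes. These 8 differences kept their sign under all 6 scalings, but TSG101 between TH and CC and CHMP4B between GC and CC passed the threshold under only 4 of them, and PDCD6IP between TH and CC and TSG101 between TH and GC under 5.

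Within slides 1 and 2, with 2 arrays per cell type, TH against CC was −1.43 and −1.34 for VPS4B (limma, adjusted p = 0.014 and 0.0054). For SDCBP it was 0.87 and 1.07 (adjusted p = 0.085 and 0.046). TH against GC did not pass the threshold within either slide for TSG101 (−0.63 and −0.71, adjusted p = 0.27 and 0.12) or CHMP4B (−0.73 and −0.64, adjusted p = 0.12 and 0.097). The F-test over TH, GC, and CC called 1 member within each slide, and the share of all genes it called there was not determined. Markers of the cell types moved with these differences, as the sums above show, the theca and blood markers being highest in TH, and their part was not tested.

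After 4 h of IVM, the mRNA of syntenin and of STAM rose in CC, and that of HGS, VPS4B, and VPS4A fell. With limma, 2 of 10 members were higher, where 30.3% of all genes were, and 3 of 10 were lower, where 15.5% were. Of the 11888 genes above background on all 8 arrays, 22.6% were higher and 22.6% lower. The median difference was 0.11 over the members, 0.37 over all genes, and 0.05 over those 11888. The IVM arrays lay above all 4 CC arrays for 4 of 10 members (STAM, TSG101, CHMP4B, and SDCBP), against 29.1% of all genes, and below them for 3 (HGS, VPS4A, and VPS4B), against 14.9%. All IVM arrays were on slide 3 and all CC arrays on slides 1 and 2, so IVM and slide cannot be told apart. With slide as a random block (estimated correlation −0.261) 8 members passed the threshold, but this block could not separate IVM from slide either. Without CC replicate 1 or without IVM replicate 4 the number was 2 or 3. The share of all genes that passed was not determined for these fits.

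SDCBP read 2.08, 1.22, 1.63, and 1.58 after IVM and −0.34, 0.15, 0.08, and 0.29 before, with no overlap. The rise was 1.58 ± 0.24 (3.00-fold, adjusted p = 0.0008), with 1.60 and 1.57 from its 2 probes, and 1.06 to 1.61 over the 6 scalings. STAM read −1.71, −2.04, −1.41, and −1.23 after IVM, all above the CC arrays, and rose by 1.20 ± 0.23 (2.30-fold, adjusted p = 0.003), between 0.68 and 1.24 over the scalings. Both passed the threshold under each of the 21 alternatives.

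HGS, the partner of STAM in ESCRT-0, went the other way. It read 2.52, 3.77, 3.45, and 3.65 after IVM, with replicate 1 far below the others, and all 4 were below CC. The fall was −0.96 ± 0.28 (1.94-fold lower, adjusted p = 0.022), and −0.922 without CC replicate 1 (adjusted p = 0.058). VPS4B read 2.52, 2.30, 2.07, and 2.05, a fall of −0.67 ± 0.19 (1.59-fold lower, adjusted p = 0.02) that missed the threshold under 3 of 21 alternatives, among them those without CC replicate 1 (−0.613, adjusted p = 0.054) and without IVM replicate 4 (−0.605, adjusted p = 0.051). VPS4A read 2.59, 2.85, 2.75, and 2.75, a fall of −0.48 ± 0.17 (1.39-fold lower, adjusted p = 0.047) that missed it under 11 of 21 alternatives, among them the omission of any of the 4 CC arrays.

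The other 5 members did not pass the threshold after IVM. TSG101 read 3.70, 4.10, 3.68, and 3.55 (0.46 ± 0.19, adjusted p = 0.064) and CHMP4B 3.17, 3.76, 3.33, and 3.17 (0.47 ± 0.19, adjusted p = 0.068), each above all CC arrays. CHMP2A read 2.11, 1.13, 2.28, and 1.53 (0.62 ± 0.27, adjusted p = 0.082), and its bright probe alone gave 0.56 ± 0.20 (adjusted p = 0.046). PDCD6IP read 1.37, 1.99, 1.80, and 2.06 (95% interval of the difference −0.715 to 0.228) and VPS25 1.82, 0.60, 0.94, and 1.19 (−0.825 to 0.358), with arrays of both groups overlapping. Marker genes also moved after IVM. Of the 4 granulosa and cumulus markers, INHBA rose (1.07) and FSHR (−1.25), CYP19A1 (−1.26), and AMH (−1.04) fell, and the sum, carried by INHBA, went from 381 to 393 in CC to 625 to 769. The oocyte markers went from sums of 0.561 to 3.01 to sums of 0.161 to 0.56, with ZP2, ZP3, ZP4, and NLRP5 (4 of 6) falling. The blood and endothelial markers went from sums of 0.0295 to 0.0418 to sums of 0.0779 to 0.128, with VWF, HBB, and PTPRC (3 of 4) rising. These values were near background. PTPRC was not well above background in either group, HBB was on 0 of 4 CC arrays and 2 of 4 IVM arrays, and VWF was on 1 of 4 and 3 of 4. With limma, none of the 5 theca markers passed the threshold, COL1A1 (−1.10, adjusted p = 0.063) being the 1 with an unadjusted p under 0.05. The part of these cell types in the differences of the members was not tested.

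**Figure D3:**
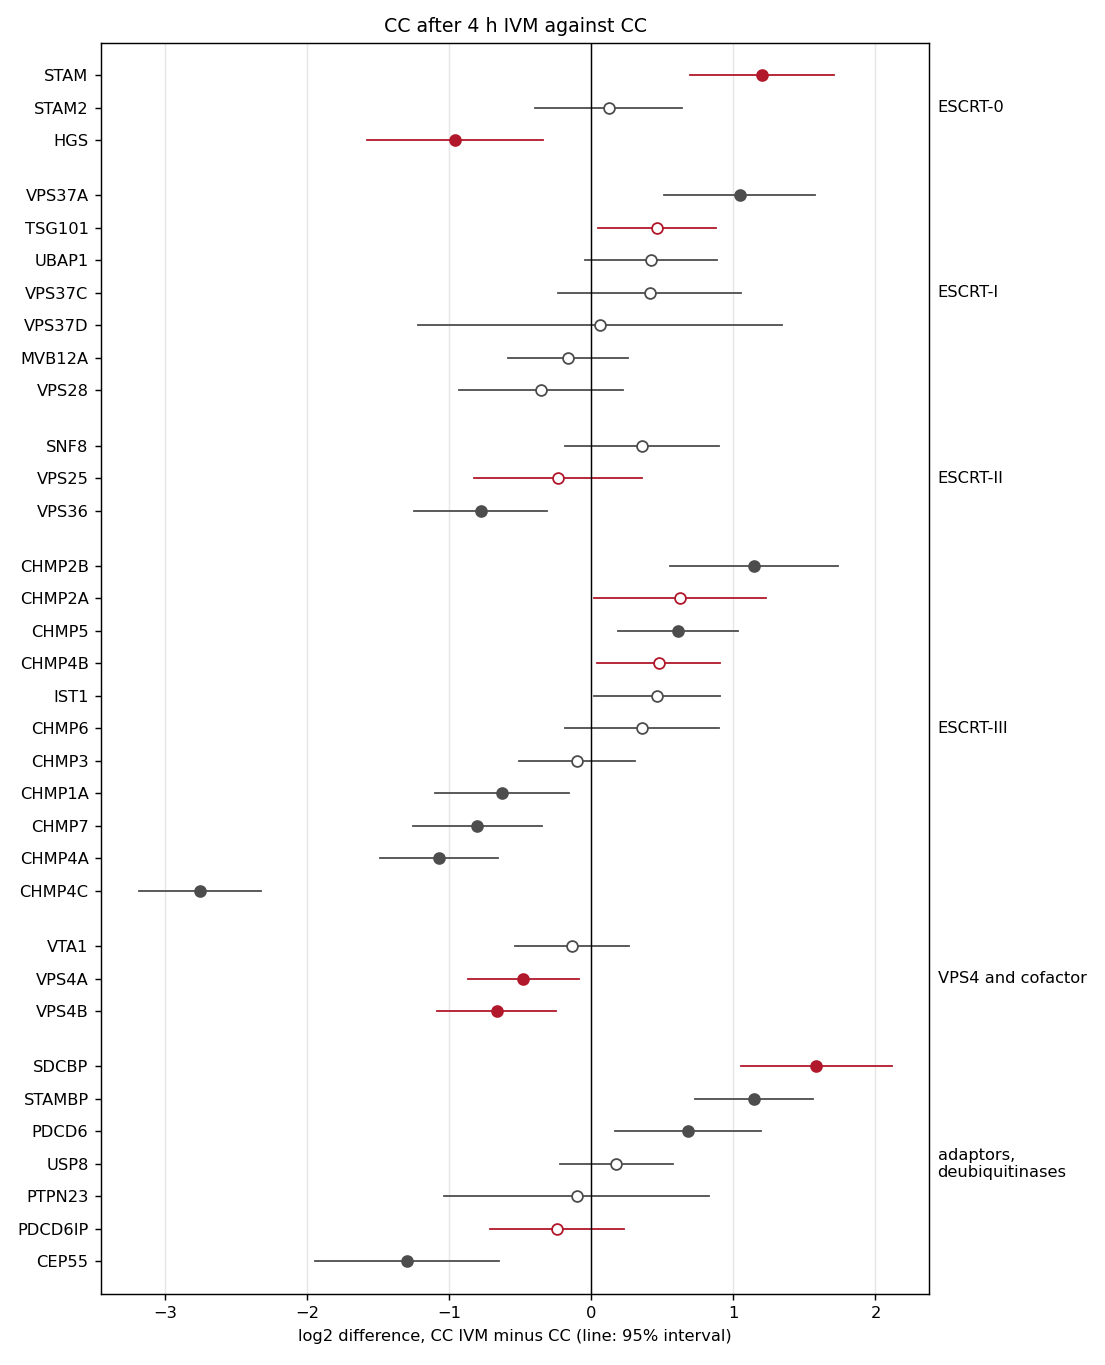
Log2 difference between CC after 4 h of IVM and CC (horizontal axis, lines are 95% intervals) for the 10 members (red) and 24 other ESCRT genes (gray) by complex, with filled points for adjusted p-values below 0.05. SDCBP lies farthest to the right at 1.58 and CHMP4C farthest to the left at −2.75.

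The other genes of the pathway were taken as a list of 27 ESCRT subunits, adaptors, and deubiquitinases, of which 24 were measured and VPS37B, MVB12B, and CHMP1B were not matched to a probe. In OO, 13 of the 24 (54.2%) were higher than in the somatic mean, against 32.9% of all genes and 45.1% of those above background. A further 8 (33.3%) were lower, near the 38.3% of both sets, and 3 did not pass the threshold. Their median difference was 0.72, against −0.52 over all genes and 0.19 over those above background. The OO arrays lay above all somatic arrays for 10 of the 24, against 25.3% of all genes, and below them for 8, against 20.6%. These shares were not taken over the genes above background. The counts ranged from 11 to 14 higher and from 7 to 11 lower over the alternatives, and STAM2 (−0.56) and PTPN23 (0.67) turned sign under 1 of the 6 scalings.

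Complexes held members of both directions. In ESCRT-II, SNF8 was higher in OO by 1.44 ± 0.21, whereas VPS36, its ubiquitin-binding subunit, was lower (−3.91 ± 0.14), beside the −1.23 of VPS25. In ESCRT-I, VPS37A, a subunit that binds TSG101, was higher by 2.64 ± 0.12 and UBAP1 by 1.70 ± 0.31 (0.37 to 1.87 over the 6 scalings), whereas VPS28 (−1.63 ± 0.22) and MVB12A (−1.47 ± 0.11) were lower. In ESCRT-III, 5 of 9 further genes were higher and 3 lower. VTA1, the cofactor that stimulates the VPS4 ATPases, was higher by 2.86 ± 0.11, the largest rise of the list, beside the fall of VPS4B. STAMBP, a deubiquitinase that binds STAM, was lower (−3.52 ± 0.13), and USP8, another one, was higher by 1.37 ± 0.16.

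VTA1 read 2.36, 2.41, 2.34, and 2.20 in OO and between −0.76 and −0.21 in the somatic arrays. VPS36 read −3.37, −2.76, −3.38, and −2.84 in OO and between 0.51 and 1.12 in the somatic arrays. STAMBP read −3.73, −3.32, −3.32, and −3.15 in OO, where the somatic arrays lay between −0.16 and 0.37. In each of these genes the gap between OO and the somatic arrays was wider than the spread within either. They were named for being among the largest rises or falls without overlap, so a gap was built into that choice.

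**Figure D4:**
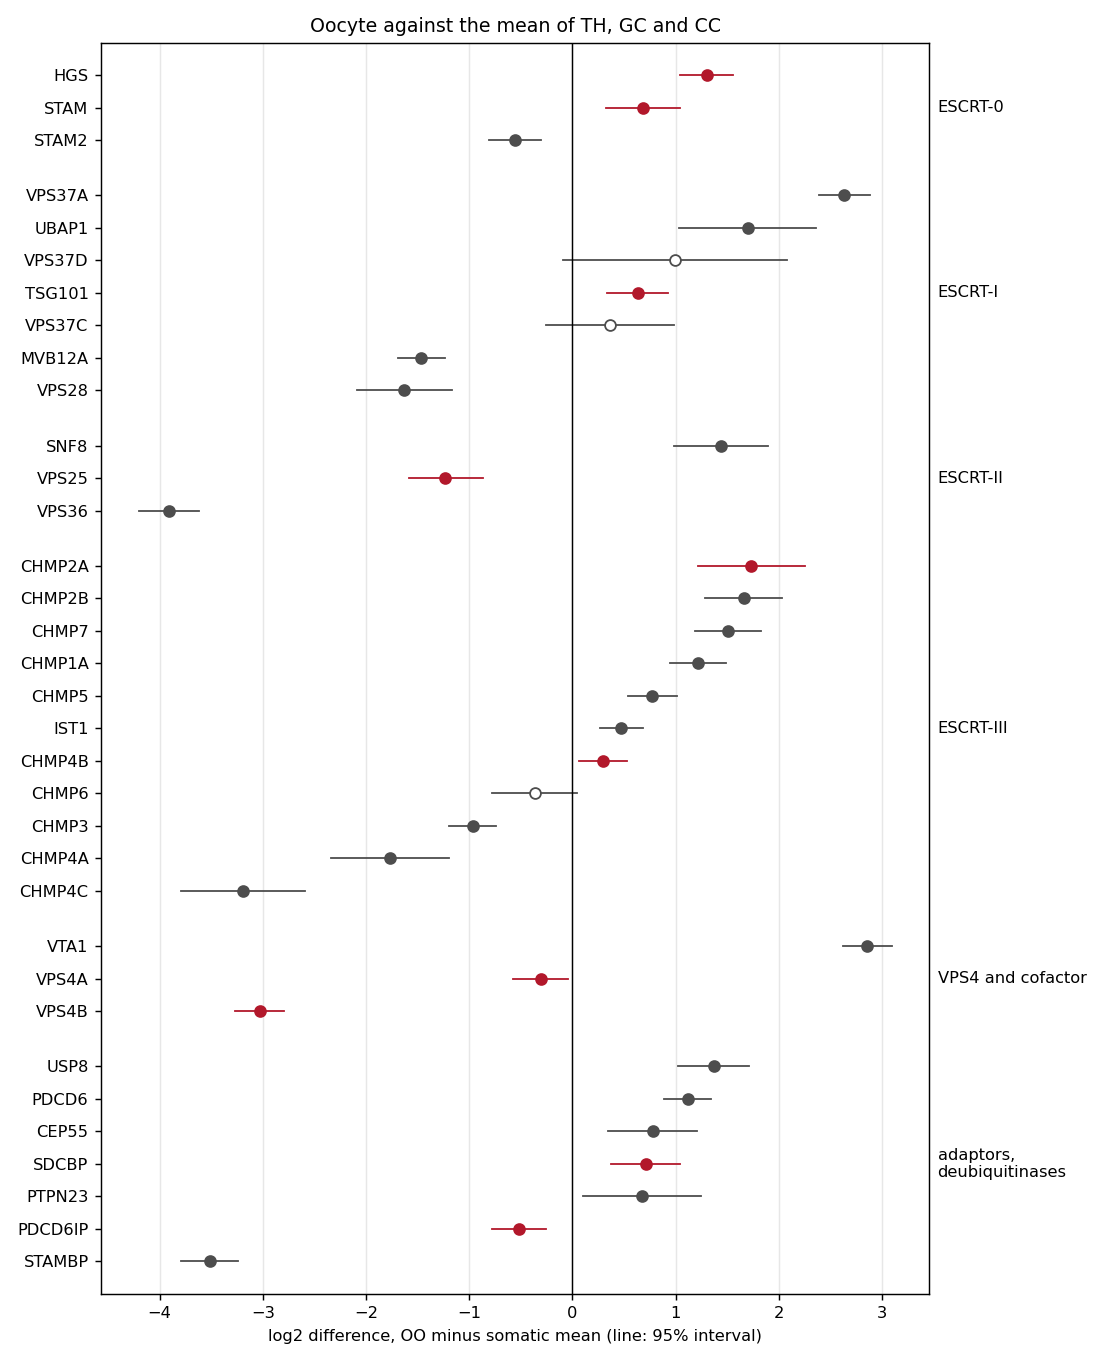
Log2 difference between OO and the somatic mean (horizontal axis, lines are 95% intervals) for the 10 members (red) and 24 other ESCRT genes (gray) by complex, with filled points for adjusted p-values below 0.05. The differences run from −3.91 for VPS36 to 2.86 for VTA1, and every complex holds points on both sides of 0.

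After IVM, 5 of the 24 (20.8%) rose in CC and 6 (25%) fell, near the 22.6% in each direction of the genes above background and against 30.3 and 15.5% of all genes. The rises were those of STAMBP (1.15 ± 0.19), CHMP2B (1.14 ± 0.27), VPS37A (1.05 ± 0.24), PDCD6 (0.68 ± 0.23), the calcium-binding partner of ALIX, and CHMP5 (0.61 ± 0.19). The largest fall was that of CHMP4C, a CHMP4 subunit that delays the final cut of cell division, from −1.85, −1.92, −2.04, and −1.74 to −4.36, −4.65, −4.56, and −4.97 (−2.75 ± 0.19, adjusted p = 1.2e-05). Its size depended on the scaling, from −2.87 to −0.82, where that of CHMP4A ran from −1.19 to −0.70 and that of CHMP7 from −1.21 to −0.78. CEP55, which brings ALIX and TSG101 to the midbody, also fell (−1.30 ± 0.29), as did CHMP4A (−1.07 ± 0.18), CHMP7 (−0.80 ± 0.20), VPS36 (−0.78 ± 0.21), and CHMP1A (−0.63 ± 0.21). All 11 kept their sign under the 6 scalings, and PDCD6 and CHMP5 passed the threshold under 3 and 5 of them and the other 9 under all 6.

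Genes of the same kind did not share a pattern in 4 of the 5 pairs that could be set side by side, which were chosen with their values known and are described with no test. The difference between 2 genes of 1 array does not depend on a constant taken from the array, but its zero is that of their probes, so it is read between groups. STAM2 minus STAM was 2.35 to 2.70 in OO and 3.27 to 4.36 in the somatic arrays. CHMP4C minus CHMP4B was −8.56 to −7.96 in OO, −8.41 to −7.53 in CC after IVM, and −6.21 to −4.08 in the somatic arrays. CHMP4C was dim in OO, well above background on 3 of 4 arrays. Its own difference ran from −3.41 to −2.06 in OO and from −2.87 to −0.82 after IVM over the 6 scalings. The pairs were not taken under the other scalings. CHMP4A minus CHMP4B was −5.78 to −4.91 in OO, −4.89 to −4.41 in CC after IVM, and −3.97 to −2.04 in the somatic arrays. CHMP2B minus CHMP2A overlapped, with means of −3.20 in OO and −3.13 in the somatic arrays.

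**Figure D5:**
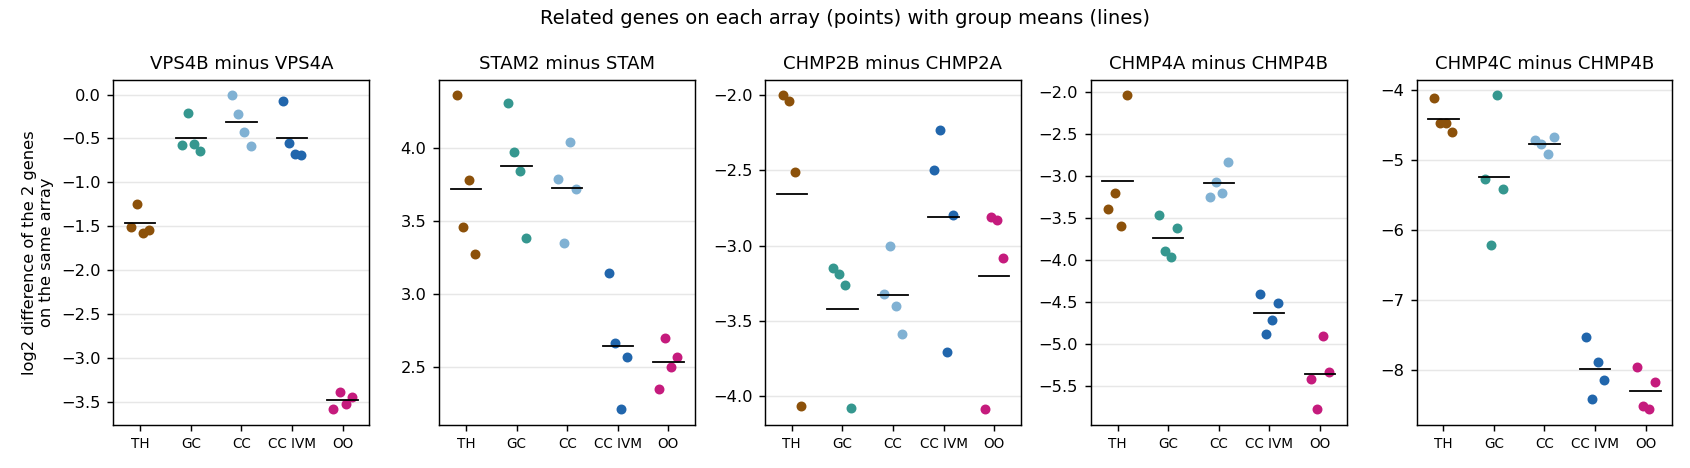
Log2 difference of 2 related genes on the same array (vertical axes, each with its own range) in the 5 groups, with points for arrays and lines for group means. OO lies below every somatic array for VPS4B minus VPS4A, STAM2 minus STAM, and both CHMP4 differences, and overlaps them for CHMP2B minus CHMP2A.

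Of the 8 genes of the syndecan route to which syntenin belongs, 2 (25%) were higher and 6 (75%) lower in OO than in the somatic mean, with a median of −1.35. Over all genes, 32.9% were higher and 38.3% lower. Against CC alone, 3 of the 8 were higher and 3 lower in OO, where 31.8% and 32% of all genes were. After IVM, 4 (50%) rose in CC, against 30.3% of all genes. Of the 6 genes lower in OO than in the somatic mean, SDC1, HPSE, and PLD2 were not well above background on any OO array. The counts and the median include these background values. PLD2 was not well above background on any GC or CC array either, so its difference lies largely between background values. The syndecans are heparan sulfate proteoglycans of the cell surface whose tails bind syntenin. SDC4 read −7.74, −6.15, −6.32, and −7.16 in OO, well above background on 2 of 4 arrays, against −4.22 to −1.57 in the somatic arrays (−4.20 ± 0.29). SDC1 was not well above background in OO and CC, and TH, at −3.17, −4.14, −3.91, and −2.43, was at least 5.62-fold higher than OO and at least 4.00-fold higher than CC. SDC2 was lower in OO than in the somatic mean (−1.22 ± 0.28) and than in TH (−4.37). It was higher in OO than in CC (1.47, adjusted p = 0.0012), and OO against GC did not pass the threshold (−0.77, adjusted p = 0.056). Within the somatic cells SDC2 was higher in TH than in GC by 3.61 and than in CC by 5.85. SDC3 was not well above background in TH, GC, and CC. OO was at least 1.03-fold higher than TH and at least 1.12-fold higher than CC, with no such limit against GC, and the sign turned under 1 scaling. Heparanase, coded by HPSE, which trims the syndecan chains, was not well above background in OO, where CC was at least 72.8-fold and GC at least 17.4-fold higher. ARF6, a small GTPase of this route, was higher in OO by 2.11 ± 0.21. EXT1, which builds heparan sulfate, was lower (−0.47 ± 0.16) and turned sign under 1 scaling, and PLD2 was well above background on only 1 TH array.

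After IVM, SDC4 read 0.56, 1.60, 1.03, and 2.10 against −2.15, −2.08, −2.05, and −2.05 in CC, a rise of 3.41 ± 0.31 (adjusted p = 4.4e-05). SDC2 rose from −3.38, −3.82, −2.82, and −2.70 to −1.93, 0.10, −1.05, and −1.39 (2.11 ± 0.42, adjusted p = 0.0043). SDC1, not well above background in CC, was at least 2.02-fold higher after IVM. These 3 rose under all 6 scalings, and ARF6 (0.96 ± 0.31) passed the threshold under 3 of them. The same slide difference applies to these genes, and SDC3 (0.31 ± 0.21) did not pass the threshold.

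Across the 20 arrays, the genes whose pattern was most like that of CHMP2A, among 8210 named genes above background on every array, were FAM118B (Pearson r = 0.958), UBE2L3 (0.944), and SNRPD3 (0.938). Those most like VPS4B were EFHA1 (0.985), NEU1 (0.984), and LRRC8D (0.983). These correlations describe 20 arrays that fall into 5 groups. The OO minus somatic differences were 3.34 for FAM118B, 1.62 for UBE2L3, and 1.52 for SNRPD3. They were −1.98 for EFHA1, −5.34 for NEU1, and −3.47 for LRRC8D. Among all pairs of members, r over the same arrays ran from −0.84 for CHMP2A and VPS4B to 0.80 for TSG101 and CHMP4B. Other pairs lay near 0, such as TSG101 and PDCD6IP (−0.01) and HGS and VPS4A (0.03).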

How the data were processed

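Total RNA of 20 bovine samples was measured on 20 arrays of 1 color, 4 in each of 5 groups that were taken from the sample titles. The authors deposited intensity per spot from Agilent Feature Extraction 10.7.3.1 (the submitters' processing notes), namely pixel signals, the background around each spot, and a processed, background-subtracted signal, annotated on UMD 3.1, with marks of 0 or 1 for signals above background, saturated, or outlying. They also deposited a table of log2 values, which equaled log2 of the median pixel signal minus the array median within 5.0e-09, without background subtraction.

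From the processed signal, spots marked as controls or outliers were dropped, each array's 75th percentile of log2 signal over 61325 probes was subtracted, and the median over the spots of a gene was taken. Of 9779 probes with no gene name, 734 were named through RefSeq. Models were fitted with limma 3.58.1 in R 4.3.3 (with version 1.17.8 of data.table) over all 22550 genes, on the 16 arrays of TH, GC, CC, and OO and on the 8 of CC with and without IVM, p-values adjusted by Benjamini–Hochberg, and calls made below 0.05. Errors are SE, and intervals are 95%. Python 3.11.15 (numpy 2.4.6, pandas 2.3.3, matplotlib 3.10.9, scipy 1.17.1) served for summaries and plots. A gene not well above background on any array of a group was given a limit only, in which each dim array takes its own value or, where that is higher, its lowest detected signal, against the brighter group's mean.

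The members and gene lists were chosen with earlier results of these data known. Beside the members, genes were named that had the 3 largest rises and 3 largest falls of their list in OO without overlap, or that passed the threshold after IVM, as well as syndecans and, for the members with the largest rise and fall, the 3 genes of most similar pattern. Other genes named for their complex were chosen after their values were seen. Alternatives were quantile, median, and detected-probe scaling, normexp (offset 50), the deposited table, the mean over spots, the brightest probe, dropping dim genes, a joint fit of all arrays, blocks for replicate and slide, each slide alone, array weights, the methods' analysis of variance, and leaving out each array. On simulated data with 200 of 22550 genes changed, a log2 change of 2 was recovered for 86.5% in the oocyte contrast and 75% after IVM, and a change of 1 for 47 and 0%. In the data themselves, 32.9% of all genes were called higher and 38.3% lower in OO, and 30.3% and 15.5% after IVM. With fewer genes changed, the adjusted threshold was stricter in the simulation, so these rates do not carry over to the calls made here. The number of arrays limits the precision. No spot was saturated.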

Additional observations from a re-analysis of the deposited data

Results flagged for a closer look

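In groups of 4 arrays, 4 of the 50 pairs of a member and a group held 1 array far from the other 3, by a gap that, as a share of the group's range, exceeded Dixon's 95% critical value. Chance alone gives such a gap in about 1 in 20 groups. CHMP2A read 2.56 on TH replicate 4 and 1.07 to 1.28 on the other TH arrays, and VPS25 read 1.95 on the same array and 1.09 to 1.2 on the others. In both genes the dim probe carried the gap and the bright probe did not. TH replicate 4 also had the highest 75th percentile of signal among the TH arrays, 1100.7 against 424.1 to 657.7. VPS25 read −0.01 on OO replicate 2, the array with the fewest probes above background, and 0.25 to 0.29 on the other OO arrays. STAM read −2.21 on OO replicate 2 and −2.14 to −2.12 on the others.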

How the results depend on the processing

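For VPS4B, VPS25, HGS, CHMP2A, and SDCBP in OO and for SDCBP and STAM after IVM, the direction and the side of the threshold held under every alternative run. In the deposited table PDCD6IP (0.113) and VPS4A (0.326) turned their sign in OO, and 2 members were lower there in place of 4. Within slide 1, 5 members in place of 9 differed among the 4 cell types and 2 in place of 4 were lower in OO, and within either slide 1 in place of 5 differed among the somatic cells. These fits held 2 arrays per cell type. The 5 members called after IVM became 8 with normexp and 8 with slide as a random block. No slide held CC both with and without IVM, so the slide block could not separate IVM from slide. Leaving out 1 array gave 2 to 6 members called after IVM, 9 to 10 differing among the 4 cell types, 4 to 6 among the somatic cells, and 5 to 6 higher and 3 to 4 lower in OO. The share of all genes called was not determined for these alternatives, so the counts do not set the members apart from other genes. Over all runs of the difference of 1 member under 1 alternative, outside the reversals, 37 missed a threshold passed before, 12 newly passed it, and 469 kept their side, and the cause was not tested.

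Replicate numbers were not taken as a pairing, since same-numbered arrays correlated in their deviations from the group means between −0.27 and 0.44 in the cell types and between −0.22 and −0.04 after IVM. The 4 pairs of TH and GC all lay above 0.1 (0.19, 0.32, 0.38, and 0.44), but the same 3 members were lower in TH than in GC with a replicate block, over 16 arrays or over those of TH and GC alone, a fit added after seeing the data in which PDCD6IP (−0.41) had an adjusted p of 0.08. The fit with a replicate block called 3 members after IVM in place of 5, without VPS4B (adjusted p = 0.056) and VPS4A (adjusted p = 0.13). An IVM comparison within a slide could not be made. At 4 arrays a group, VPS4A and CHMP4B, with differences in OO near 0.3, were the members nearest to the threshold.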
